A study of Mus musculus with 6 samples.

Results

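The transactivator gene Ciita, the invariant chain gene Cd74, the classical chain genes H2-Aa, H2-Ab1 and H2-Eb1 and the DM genes H2-DMa and H2-DMb1 make up the MHC class II pathway followed here. These 7 genes were taken by symbol from the 51912 genes listed, and all 7 of them are among the 13644 genes that passed the filter on low counts. The libraries are RNA-seq of epithelial cells sorted from the small intestine of C57BL/6 mice, with 2 libraries a group. AF (antigen free) mice had no foreign antigens from a microbiota or from food, GF (germ free) mice had no microbiota, and SPF (specific pathogen free) mice were free only of particular pathogens. AF replicates 2 and 3, GF replicates 1 and 3 and SPF replicates 3 and 4 carry the numbers of their titles. By its title, the series is about food antigens and the antigen presentation pathway of the gut lining. AF versus GF sets the absence of food antigens against their presence in the absence of microbes, GF versus SPF does so for the microbiota, and AF versus SPF differs by both. Whatever else differed between the diet of AF mice and the diets of the other groups cannot be told apart from food antigens. The sources used here do not give the diets, the ages, the number of animals behind a library or the markers of the sort, and nothing says that libraries of a group came from separate animals, so the p-values measure the spread between these libraries, which may be technical.

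MHC class II molecules are pairs of an alpha and a beta chain that hold peptides from the endosomal pathway and show them to CD4+ T cells. Cd74, the invariant chain, guides the newly made pair to endosomes and fills its groove, and the H2-DM pair (encoded by H2-DMa and H2-DMb1 or H2-DMb2) then helps to exchange the remnant of Cd74 for peptide. Ciita is the coactivator that class II transcription depends on. It binds no DNA itself but docks on RFX, CREB and NF-Y proteins at the X and Y boxes of class II promoters, and in cells other than professional antigen-presenting cells its own gene is mainly switched on by interferon-gamma, with Irf1 among the factors that act on its promoter. Enterocytes of the small intestine are known to carry class II molecules, and C57BL/6 mice lack the H2-E alpha chain, so that their H2-Eb1 chain has no usual partner.

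The promoters are shown because class II genes share a control element that a reader can see by eye. RefSeq windows on GRCm38.p6, from 250 bases before to 50 bases after a start, were supplied for 4 of the 7 genes and for 4 of 5 other class II genes. Letters were chosen after the windows had been seen, with CNNGNAAC for the X box and TGATTGG for the Y box, and both are in capitals. A stretch of 80 bases each is printed 5′ to 3′ for H2-Aa (chr17:34287844-34287923, minus strand), H2-Eb1 (chr17:34305756-34305835, plus strand) and H2-DMb1 (chr17:34153078-34153157, plus strand). H2-Oa (chr17:34092284-34092363, plus strand), whose gene had almost no reads here, is set beside them.
H2-Aa: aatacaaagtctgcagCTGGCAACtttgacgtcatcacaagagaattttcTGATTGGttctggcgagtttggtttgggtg
H2-Eb1: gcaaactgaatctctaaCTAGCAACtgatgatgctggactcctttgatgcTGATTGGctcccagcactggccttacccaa
H2-DMb1: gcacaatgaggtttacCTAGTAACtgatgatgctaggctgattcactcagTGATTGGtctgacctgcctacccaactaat
H2-Oa: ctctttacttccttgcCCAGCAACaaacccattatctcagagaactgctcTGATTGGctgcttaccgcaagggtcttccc
The gap between the last base of the X letters and the first of the Y letters was 26 bases in H2-Aa, H2-DMb1 and H2-Oa and 25 bases in H2-Eb1. The X letters began 84, 94 and 97 bases before the start in H2-Aa, H2-Eb1 and H2-DMb1. Both motifs, X first with at most 40 bases between, occurred on either strand in 95 of 32851 mouse windows of the same length (0.289%). On the sense strand alone, 52 windows (0.158%) held them. The X letters alone were in 39.1% and the Y letters alone in 7.82% of windows, on either strand, and the motifs do not overlap. Read on the sense strand, H2-Ob and H2-Eb2 also held the pair, while H2-DMb2 and both windows of H2-DMa did not. A match of letters is a description and not a shown binding site.

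Across the libraries the class II genes formed a low and a high set that cut through the GF group. Both AF libraries were low for all 7 genes, both SPF libraries were high, GF replicate 3 was close to SPF and GF replicate 1 was nearer to AF. Levels below are CPM, counts scaled to library totals that TMM corrects for composition, unless they are given as TPM, which also allow for transcript length and so let genes be compared. In bulk RNA, fewer cells of a type and less RNA per cell cannot be told apart.

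The libraries also differed in sex-linked transcripts. The 4 Y-linked genes read summed to 59.7 and 53.1 CPM in AF, 61.7 and 52.2 CPM in GF and 0 in SPF, and Xist, which is expressed from the inactive X chromosome, was at 0 and 0.178 CPM in AF, 0.109 and 14.8 CPM in GF and 129.7 and 96.6 CPM in SPF. Sex and microbiota cannot be told apart in the comparisons with SPF. GF replicate 3 was the only library with both Y-linked counts and Xist above 1 CPM, and so looked mixed, which bears on AF versus GF and GF versus SPF alike. Those comparisons are given with and without it. The names of the deposited tables end in a mark that reads like a date, the same within a group and different between groups. No label says what it stands for, and whatever it marks cannot be told apart from the group.

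**Figure D1:**
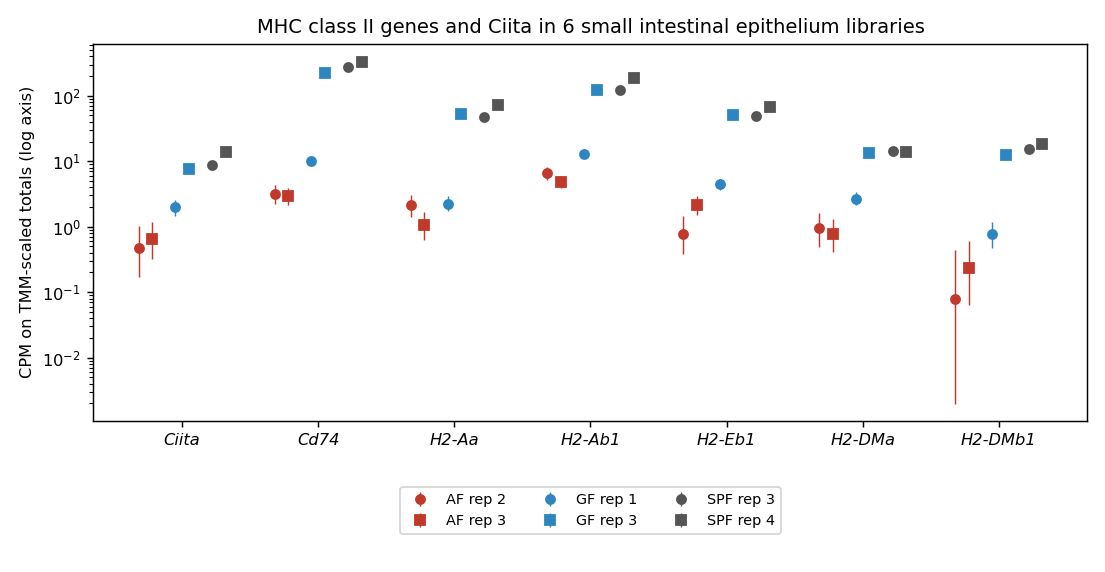
Level of each class II gene in every library, in CPM on a log axis, with AF, GF and SPF from left to right and exact Poisson 95% intervals as bars. Every gene is lowest in an AF library, and GF replicate 3 lies 3.89-fold (Ciita) to 23-fold (H2-Aa) above GF replicate 1.

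Ciita (ENSMUSG00000022504, GRCm38 chromosome 16, 10480059 to 10528418, plus strand) was measured at 0.471 and 0.654 CPM in AF replicates 2 and 3, at 1.97 and 7.67 CPM in GF replicates 1 and 3, and at 8.66 and 13.7 CPM in SPF replicates 3 and 4. These levels rest on 6 and 11 counts in AF, 54 and 113 in GF and 189 and 200 in SPF, so the coactivator was the least abundant of the 7 per length, at 0.07 to 0.12 TPM in AF, 0.58 to 1.27 TPM in GF and 2.32 to 2.37 TPM in SPF. The groups did not overlap by value, and AF was lowest. The 8.66 CPM of SPF replicate 3 is, however, within the exact Poisson 95% interval of GF replicate 3, which runs from 6.32 to 9.22 CPM. In the GENCODE M21 annotation 329 of its exon bases lie under Dexi on the other strand. RSEM's length for Ciita was 5254 bases, against 6007 bases in GENCODE M21, so the submitters' annotation may not hold that stretch. If it does, its reads cannot be assigned to either gene, since the strand setting is not given. Dexi itself was at 3.98 to 4.95 CPM in all 6 libraries.

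Cd74 (ENSMUSG00000024610, chromosome 18, 60803848 to 60812652, plus strand) was at 3.14 and 2.91 CPM in AF, 10.2 and 220.2 CPM in GF and 279 and 329 CPM in SPF, in the same order of libraries. Per length the invariant chain was the most abundant of the 7 genes in SPF, at 366 and 267 TPM, and stood at 2.11 and 2.58 TPM in AF. GF replicate 1 lay closer to AF, GF replicate 3 closer to SPF, and the 3 groups did not overlap.

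The classical chains lie together on chromosome 17. H2-Aa (ENSMUSG00000036594, 34282744 to 34287823, minus strand), the alpha chain of H2-A, was at 2.12 and 1.07 CPM in AF, 2.26 and 52 CPM in GF and 47.4 and 72.1 CPM in SPF. Its 2.26 CPM in GF replicate 1 is within the exact Poisson 95% interval of AF replicate 2, which runs from 1.4 to 3.09 CPM. H2-Ab1 (ENSMUSG00000073421, 34257689 to 34269419, plus strand), the beta chain of H2-A, was at 6.6 and 4.87 CPM in AF, 13.1 and 124 CPM in GF and 122 and 187 CPM in SPF. H2-Eb1 (ENSMUSG00000060586, 34305867 to 34316674, plus strand), the beta chain of H2-E, was at 0.785 and 2.14 CPM in AF, 4.45 and 51 CPM in GF and 49 and 67.2 CPM in SPF. For all 3 chains AF was below both other groups, while GF replicate 3 was above SPF replicate 3, so GF and SPF overlapped. The alpha chain gene of H2-E, annotated as the pseudogene H2-Ea-ps, had 0 counts in every library.

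The DM genes followed the same order, and neither exceeded 17.7 TPM in any library. H2-DMa (ENSMUSG00000037649, chromosome 17, 34119541 to 34139101, plus strand) was at 0.942 and 0.772 CPM in AF, 2.7 and 13.6 CPM in GF and 14.3 and 13.9 CPM in SPF. H2-DMb1 (ENSMUSG00000079547, chromosome 17, 34153072 to 34160230, plus strand) was at 0.0785 and 0.238 CPM in AF, 0.766 and 12.6 CPM in GF and 15.6 and 18.2 CPM in SPF. In AF it rests on 1 count in replicate 2 (exact Poisson 95% interval 0.00199 to 0.438 CPM) and 4 counts in replicate 3. By value neither DM gene overlapped between groups. For H2-DMa, however, both SPF values are within the exact Poisson 95% interval of GF replicate 3, which runs from 11.8 to 15.6 CPM. The intervals cover counting error only. H2-DMa shares 360 exon bases with Brd2 on the other strand, at 118 to 168 CPM, and those reads cannot be assigned without a strand setting either.

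The remaining class II genes were nearly silent. H2-DMb2, H2-Oa, H2-Ob, H2-Eb2 and H2-Ea-ps together had 0 and 0 counts in AF, 5.19 and 4 in GF and 3.07 and 5.17 in SPF, and 0 of these 5 genes passed the filter. H2-Oa and H2-Ob encode the DO pair, which holds DM in check mainly in B cells. RSEM shares out reads between H2-DMb1 and its near copy H2-DMb2, but its posterior standard deviation for H2-DMb1 was at most 0.59 counts.

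AF versus GF asks what went with the absence of food antigens among mice without a microbiota. All 7 class II genes were lower in AF than in GF, with log2 fold changes between -5.25 and -3.05 and a median of -4.10, beside a median of -0.02 over all genes tested. On CPM, 7 of 7 genes had both AF libraries below both GF libraries, which 17.8% of all genes tested also did. Cd74 and H2-DMb1 had the largest differences, at -5.25 ± 1.37 and -5.25 ± 1.48 (log2, SE), or 38-fold and 38.1-fold lower in AF. Ciita differed by -3.05 ± 0.76 and H2-DMa by -3.23 ± 0.80, H2-Ab1 by -3.58 ± 1.01, H2-Aa by -4.10 ± 1.39 and H2-Eb1 by -4.19 ± 1.19. None passed the edgeR quasi-likelihood test, in which all 7 had an adjusted p of 1, against 0.00733% of genes called lower. At an unadjusted p under 0.05 in that test 7 of 7 were lower, with p between 0.00651 (H2-DMa) and 0.0254 (H2-Aa), against 2.07% of all genes. DESeq2 called 7 of 7 lower, against 0.279% of genes, and edgeR's likelihood ratio test 4 of 7, against 0.264%. The quasi-likelihood fit with no filter on low counts, whose prior degrees of freedom came out infinite, called 7 of 7, against 0.76%. Without GF replicate 3 the median difference was -1.65, and H2-Aa was left with -0.52 (log2). Without GF replicate 1 it was -5.04, so the size of AF versus GF rests on which GF library is used.

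AF versus SPF compares mice lacking both sources of antigen with mice that have both. Here the class II genes were lower in AF by 4.04 (H2-DMa) to 6.65 (Cd74) on the log2 scale, with a median log2 fold change of -5.25, beside 0.01 over all genes. Cd74 was 100.3-fold lower in AF (log2 fold change -6.65 ± 1.46, SE) and H2-DMb1 97.4-fold lower (-6.61 ± 1.51). H2-Eb1 was 38.5-fold, H2-Aa 38-fold, H2-Ab1 27-fold, Ciita 19.4-fold and H2-DMa 16.4-fold lower. None passed the edgeR quasi-likelihood test after adjustment, with adjusted p from 0.304 (Ciita) to 0.389 (H2-Aa) and 0.0147% of all genes called lower. At an unadjusted p under 0.05 in the same test 7 of 7 were lower, with p between 0.00147 and 0.0106, against 6.52% of genes. DESeq2 called 7 of 7 lower, against 1.19% of genes, as did edgeR's likelihood ratio test, against 1.19%, and the fit with no filter, against 1.85%. A fit of AF and SPF alone called Cd74, against 0.00768% of genes. Both AF libraries were below both SPF libraries for 7 of 7 genes on CPM, as for 22.6% of all genes. Leaving out any 1 library kept the median between -5.47 and -4.83, and Cd74 then passed edgeR's quasi-likelihood test without GF replicate 1 (adjusted p = 0.0368, 0.00705% of genes called lower) and without GF replicate 3 (adjusted p = 0.0412, 0.00698%). Without SPF replicate 3 only Ciita of the 7 passed it (adjusted p = 0.0404 in edgeR), where 1.54% of genes did.

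GF versus SPF, the comparison by microbiota, gave smaller differences than AF versus GF with all libraries, an order that turned round without GF replicate 3. Class II genes were lower in GF by 0.81 (H2-DMa) to 1.40 (Cd74) on the log2 scale, with a median of -1.18, beside 0.02 over all genes. Adjusted p in edgeR's quasi-likelihood test ran from 0.743 (Ciita) to 0.848 (H2-Aa), with 0% of genes called lower, and 0 of 7 reached an unadjusted p of 0.05, which 3.51% of genes did in this direction. DESeq2 and edgeR's likelihood ratio test also called 0 of 7, against 0.293% and 0.322% of genes, while the fit with no filter called 4 of 7, against 0.901%. Ciita, Cd74, H2-DMa and H2-DMb1 had both GF libraries below both SPF libraries on CPM, or 4 of 7, against 17.1% of genes, and on TPM 7 of 7 did, against 12.6% of genes at 1 TPM or more in 2 libraries. Without GF replicate 3 the median was -3.71, beside -1.65 for AF versus GF in the same fit. Without GF replicate 1 it was -0.32.

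**Figure D2:**
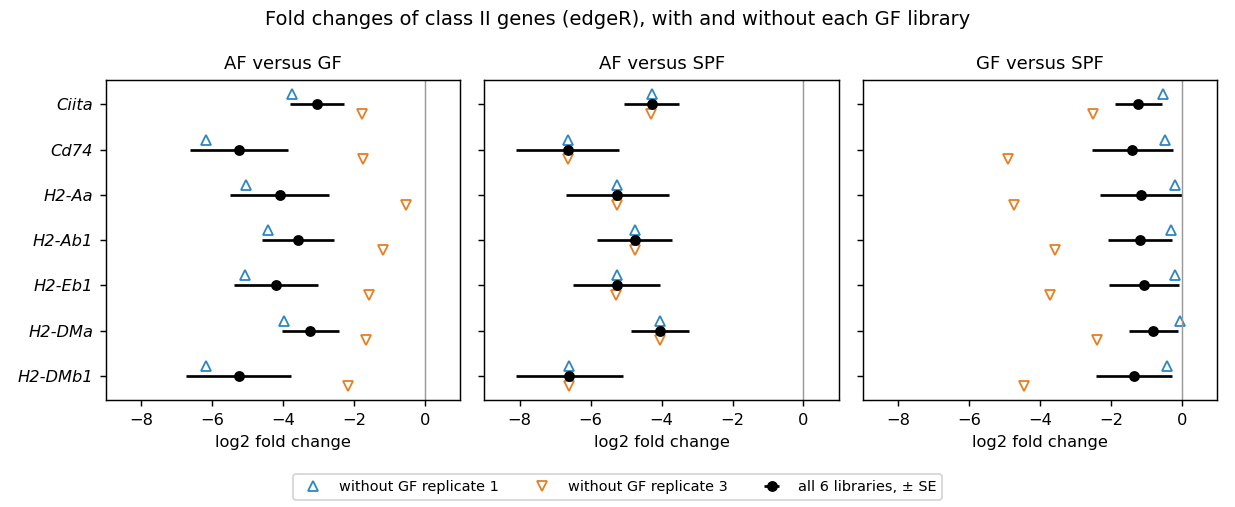
Log2 fold change of each class II gene in AF versus GF, AF versus SPF and GF versus SPF, with black points for all 6 libraries (bars, SE) and triangles for fits without GF replicate 1 (blue) or GF replicate 3 (orange). The AF versus GF median is -5.04 without GF replicate 1 and -1.65 without GF replicate 3, and the GF versus SPF median is -0.32 and -3.71 in the same order. The AF versus SPF fold change uses no GF library, so its points lie together by construction.

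A single test for any difference among the 3 groups gave adjusted p of 0.598 (Ciita) to 0.659 in edgeR's quasi-likelihood fit, so that 0 of 7 were called beside 0.0293% of all genes. Unadjusted p in that test ran from 0.00433 to 0.0296, and the share of all genes at such values was not counted. DESeq2 called 6 of 7, against 1.52% of genes, edgeR's likelihood ratio test 7 of 7, against 1.95%, and the fit with no filter 7 of 7, against 4.12%. limma on log2(TPM + 1) called 0 of 7 here, against 0.0908% of genes, and 0 of 7 in AF versus GF (0.0248%), AF versus SPF (0.0165%) and GF versus SPF (0.00825%). AF against the mean of GF and SPF gave log2 fold changes of -5.95 (Cd74) to -3.63 (H2-DMa), with edgeR adjusted p of 0.515 to 0.645 and 0.0147% of genes called lower. These comparisons share their libraries with those above.

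The make-up of the class II transcripts differed between the low and the high libraries as well as their amount. Summed over the 7 genes, TPM were 11.5 and 12.6 in AF, 51.5 and 390.7 in GF and 714 and 588.9 in SPF. H2-Ab1 was the most abundant of the 7 per length in both AF libraries and GF replicate 1, with 54.1%, 48.1% and 43.2% of the sum, whereas Cd74 led in GF replicate 3 and both SPF libraries, with 44.7%, 51.2% and 45.3%. The ratio of Cd74 to H2-Ab1 in TPM was 0.339 and 0.426 in AF, 0.655 and 1.6 in GF and 2.08 and 1.52 in SPF. That invariant chain to beta chain ratio was lower in both AF libraries than in any other, with a difference in mean log2 ratio of -2.22 for AF minus SPF. An exact permutation test, two-sided, gave p = 0.333 for it, the smallest that 2 libraries against 2 can give.

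The DM pair differed in ratio too. H2-DMb1 over H2-DMa in TPM was 0.224 and 0.333 in AF, 0.315 and 1.04 in GF and 1.17 and 1.47 in SPF. The AF libraries and GF replicate 1 thus had fewer H2-DMb1 than H2-DMa transcripts and the other 3 libraries had more, although AF and GF overlapped and the AF values rest on 1 and 4 H2-DMb1 counts. RSEM's length for H2-DMb1 was 692 bases in AF replicate 2, that of its shorter transcript, and 1404 bases in every other library. The ratio of 0.224 in AF replicate 2 therefore rests on a different length. Cd74 over Ciita in TPM was 30.1 and 21.5 in AF, 25.2 and 138 in GF and 154 and 115 in SPF. H2-Eb1 over H2-Ab1 was 0.299 to 0.388 in GF and SPF and 0.0899 and 0.336 in AF, with the lowest value in AF replicate 2.

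**Figure D3:**
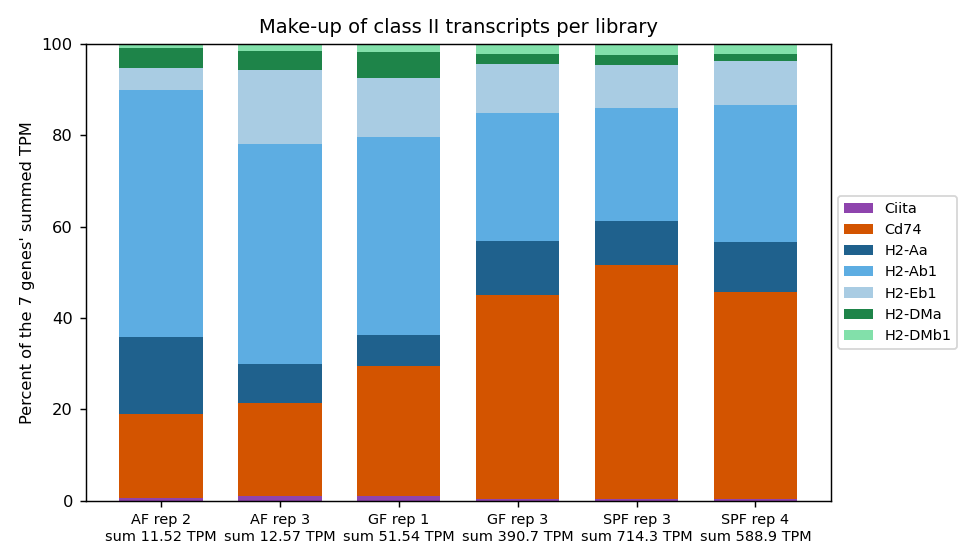
Share of each class II gene in the summed TPM of the 7 genes, per library, in AF, GF and SPF from left to right. H2-Ab1 is the largest part in both AF libraries and GF replicate 1 (43.2 to 54.1%), Cd74 in the other 3 (44.7 to 51.2%).

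Genes upstream of Ciita and its partners at the promoter differed by smaller values than the class II genes. Of the 7 promoter factors (the RFX subunits Rfx5, Rfxap and Rfxank, the NF-Y subunits Nfya, Nfyb and Nfyc, and Creb1) 0 of 7 passed the edgeR quasi-likelihood test in any of the 3 comparisons, 0 of 7 had an unadjusted p under 0.05, and DESeq2 called 0 as well. Their median log2 fold change was 0.09 in AF versus GF, -0.26 in AF versus SPF and -0.20 in GF versus SPF. Rfxank was at 58.7 and 45.7 CPM in AF, 32.3 and 51 CPM in GF and 46.7 and 81.6 CPM in SPF, so its groups overlapped. Nfyc was at 26.5 and 28.3 CPM in AF, 25.9 and 26.8 CPM in GF and 28.9 and 37.8 CPM in SPF, which again gave AF and GF ranges that overlapped.

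Of 9 genes that carry the interferon-gamma signal to Ciita (among them receptor chains, kinases, Irf1, Irf2, Usf1 and the inhibitor Socs1), 0 of 9 passed the edgeR test in any comparison, and 1 of 9 had an unadjusted p under 0.05, in AF versus SPF. DESeq2 called 0 of 9. The median log2 fold change was 0.01 in AF versus GF, -0.29 in AF versus SPF and -0.28 in GF versus SPF. Irf1, which binds the interferon-responsive promoter of Ciita, was at 154 and 112 CPM in AF, 105 and 159.6 CPM in GF and 182 and 261 CPM in SPF. AF and GF overlapped for Irf1, whose AF versus GF log2 fold change was 0.01 ± 0.34, and SPF was above both.

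With all 6 libraries, genes that respond to interferon-gamma had a median difference close to that of the class II genes in GF versus SPF. In AF versus GF and AF versus SPF their median differences were smaller. Of 15 listed (immunity-related GTPases, guanylate-binding proteins, Tap1, Psmb8, Psmb9, Nlrc5, Cxcl9 and Cxcl10), 12 passed the filter, with a median log2 fold change of -0.54 in AF versus GF, -1.61 in AF versus SPF and -1.18 in GF versus SPF. The edgeR quasi-likelihood test called 0 of 12 in each. At an unadjusted p under 0.05 it found 0, 10 and 7 lower in AF versus GF, AF versus SPF and GF versus SPF, where 2.07%, 6.52% and 3.51% of all genes were. DESeq2 called 0, 3 and 1 lower, against 0.279%, 1.19% and 0.293% of genes, and edgeR's likelihood ratio test 0, 4 and 1, against 0.264%, 1.19% and 0.322%. Irgm2, an immunity-related GTPase, was at 10.4 and 7.13 CPM in AF, 9.3 and 18.6 CPM in GF and 34.2 and 50.6 CPM in SPF. AF and GF overlapped, and both lay below SPF. Igtp, another of these GTPases, was at 16.9 and 17.8 CPM in AF, 17.1 and 58 CPM in GF and 76.7 and 120.5 CPM in SPF, again with SPF apart. The centred median log2 CPM of the list was -0.43 and -0.84 in AF, -1.02 and 0.40 in GF and 1.01 and 1.04 in SPF. GF replicate 1 was lowest there. For the class II genes AF was lowest, and the same measure was -2.41 and -2.72 in AF, -1.32 and 2.25 in GF and 2.19 and 2.65 in SPF. The GF replicates thus lay farther apart for the class II genes, although the GF versus SPF medians were close.

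Genes that supply peptide to class II molecules (the cathepsins Ctss, Ctsl, Ctsb, Ctsd and Ctsh, the endopeptidase Lgmn and the thiol reductase Ifi30) gave 0 of 7 called by edgeR or DESeq2 in each comparison, and 0, 3 and 2 lower at an unadjusted edgeR p under 0.05 in AF versus GF, AF versus SPF and GF versus SPF, against 2.07%, 6.52% and 3.51% of all genes. Ctss, the protease that trims Cd74 in professional antigen-presenting cells, was at 40 and 35.2 CPM in AF, 46.6 and 52.6 CPM in GF and 61.8 and 96.2 CPM in SPF. These groups did not overlap, and the AF versus SPF log2 fold change was -1.07 ± 0.27. Lgmn was at 12.4 and 10.2 CPM in AF, 8.46 and 8.68 CPM in GF and 15.7 and 18.2 CPM in SPF, with GF lowest. Of 7 genes of surface turnover and costimulation 3 passed the filter and 0 of 3 were called, or had an unadjusted p under 0.05, in any comparison, by DESeq2 0 as well. March8, a ubiquitin ligase that takes class II molecules from the surface, was at 55.4 and 56.6 CPM in AF, 63.7 and 63.5 CPM in GF and 62.7 and 90.3 CPM in SPF. Icosl, a costimulatory ligand, was at 6.13 and 3.8 CPM in AF, 5.1 and 6.45 CPM in GF and 5.4 and 7.54 CPM in SPF, with all groups overlapping.

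**Figure D4:**
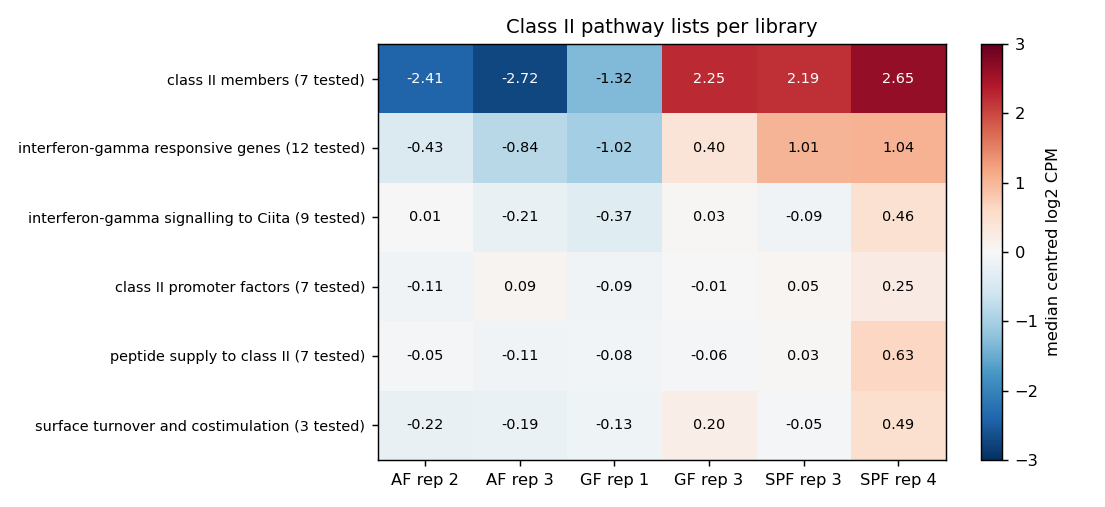
Centred median log2 CPM of the class II genes and of the other lists of the pathway, per library, with AF, GF and SPF marked. The class II genes span -2.72 to 2.65, the interferon-gamma responsive genes -1.02 to 1.04.

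Markers of other cells that carry or accompany class II were read beside these values. T cell and intraepithelial lymphocyte markers, 11 of 12 past the filter, summed to 18.6 and 11.8 CPM in AF, 34.9 and 344 CPM in GF and 212 and 80.2 CPM in SPF, and none was at 0 counts in every library. Their most abundant gene was Gzma, a granzyme, at 4.71 and 3.51 CPM in AF, 12.9 and 137 CPM in GF and 78.3 and 29.5 CPM in SPF. GF replicate 3 exceeded GF replicate 1 by 9.85-fold in this sum and by 13.6-fold in that of the class II genes. Within SPF, replicate 4 had the lower lymphocyte sum, and its class II sum was higher than that of replicate 3 on CPM (701 and 536 CPM) but lower on TPM (588.9 and 714 TPM). At an unadjusted edgeR p under 0.05, 9 of 11 lymphocyte markers were lower in AF than in GF (2.07% of all genes) and 6 of 11 were lower in AF than in SPF (6.52%). The median log2 fold changes were -3.20 and -3.11, and all 11 were lower by value in both. After adjustment edgeR's quasi-likelihood test called 0 of 11 in both, and DESeq2 called 2 in AF versus GF (0.279% of genes) and 4 in AF versus SPF (1.19%). The part of these cells in the class II differences was not tested.

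Markers of cells known for high class II levels were summed in the same way. The 8 B cell markers summed to 0.157 and 0.119 CPM in AF, 0.328 and 0.678 CPM in GF and 0.641 and 0.412 CPM in SPF, 0 of 8 passed the filter, Fcer2a and Cr2 were at 0 in every library, and Cd79b was the most abundant. Dendritic cell markers other than Irf8 summed to 0.471 and 0.832 CPM in AF, 1.02 and 4.14 CPM in GF and 3.11 and 1.58 CPM in SPF, with Xcr1 and Clec9a at 0 throughout. With Irf8 the sum was 32.3 to 43.9 CPM in AF, 48.4 to 74.4 CPM in GF and 86 to 106.6 CPM in SPF. The 9 macrophage markers reported summed to 4.08 and 2.2 CPM in AF, 3.24 and 5.22 CPM in GF and 3.85 and 4.8 CPM in SPF, with overlapping groups. Pan-leukocyte genes, led by Lcp1 on the mean of all libraries, summed to 21.8 and 20.1 CPM in AF, 22.2 and 87 CPM in GF and 51.2 and 25.6 CPM in SPF. Rac2 was the largest part of that sum in AF, at 12.3 and 9.51 CPM, beside 6.31 and 14.1 CPM in GF and 9.75 and 3.91 CPM in SPF. Unlike the other genes of the list, Rac2 was higher by value in AF than in GF (log2 0.10 ± 0.56, SE) and in SPF (0.67 ± 0.56). Of these 8 leukocyte genes, 7 were lower in AF than in GF (median log2 fold change -2.23) and 7 were lower in AF than in SPF (median -2.19), 3 of 8 at an unadjusted edgeR p under 0.05 in each, against 2.07% and 6.52% of all genes. After adjustment edgeR's quasi-likelihood test called 0 of 8 in both, and DESeq2 called 1 in AF versus GF and 0 in AF versus SPF, against 0.279% and 1.19% of genes. The class II medians in the same comparisons were -4.10 and -5.25. The part of leukocytes, B cells, dendritic cells and macrophages in the class II values was not tested.

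**Figure D5:**
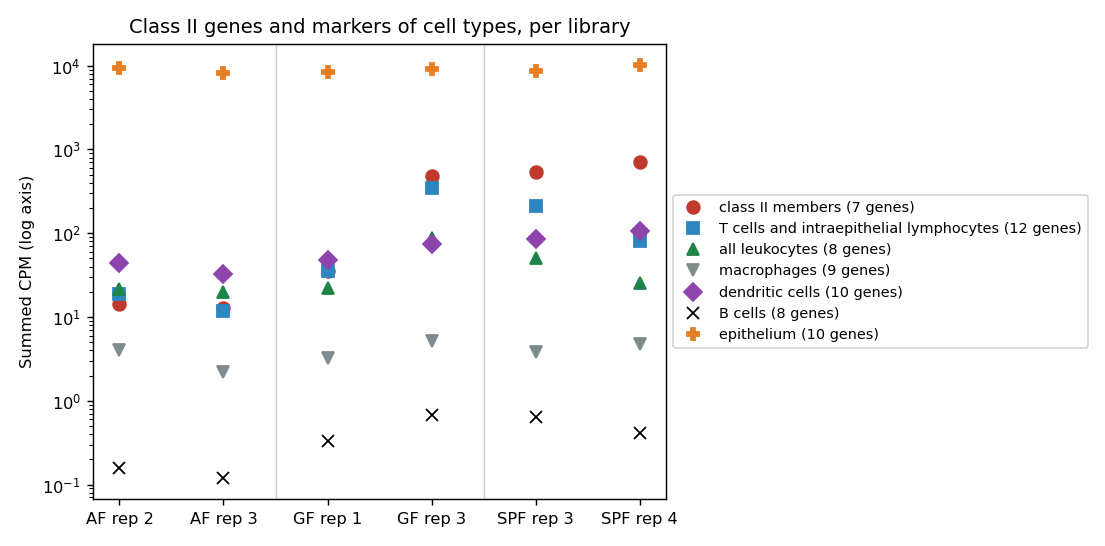
Summed CPM per library, on a log axis, of the class II genes and of marker lists of other cell types. The class II sum is 12.7 to 14.1 CPM in AF, 35.4 to 481 CPM in GF and 536 to 701 CPM in SPF, while pan-leukocyte markers range between 20.1 and 87 CPM. In AF the largest part of the pan-leukocyte sum is Rac2, at 12.3 and 9.51 CPM.

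The libraries read as epithelium in all 3 groups, with epithelial markers summing to 8064 to 9357 CPM in AF, 8466 to 9239 CPM in GF and 8620 to 10281 CPM in SPF, led by the keratin Krt8. Totals were 16109488 to 19417054 expected counts, and mitochondrial genes took 35.3 and 28.7% of them in AF, 17.9 and 32.1% in GF and 18.1 and 27.2% in SPF. That share was higher in both AF libraries than in both SPF libraries, and higher in GF replicate 3 than in GF replicate 1. Its part in the class II values was not tested. Crypt markers, led by Olfm4, summed to 211 and 362 CPM in AF, 598 and 221 CPM in GF and 513 and 35.6 CPM in SPF, in order of replicate number. Proximal markers, led by Fabp1, summed to 1875 and 1513 CPM in AF, 1497 and 1963 CPM in GF and 2300 and 4776 CPM in SPF. Distal markers, led by Fabp6, summed to 936 and 601 CPM in AF, 1524 and 805 CPM in GF and 782 and 828 CPM in SPF. GF replicate 1 thus had higher crypt and distal sums and a lower proximal sum than GF replicate 3. The part of crypt and regional make-up in the class II values was not tested.

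The genes whose pattern over the 6 libraries was most like the mean of the 7 class II genes were found by the root mean square difference in centred log2 CPM. This covered 8725 genes with a mean of at least 5 CPM. Predicted genes (Gm, Rik), IDs without a unique symbol and symbols matching immunoglobulin or T cell receptor segments were left out. The class II genes themselves lay between 0.248 (H2-Ab1) and 0.68 (Cd74) from that mean, of which each is a part. None of the 8725 genes considered came closer than Cd74. The median over all genes considered was 2.32. The 8 nearest were Duox2 (0.921), the oxidase of the epithelial surface, Ccl5 (0.96), Gzma (0.967), Gzmb (1.02), Duoxa2 (1.02), the maturation factor of Duox2, Reg3g (1.06), an antimicrobial lectin, Cyp2b10 (1.12) and Itgae (1.13). Ccl5, Gzma, Gzmb and Itgae are on the list of lymphocyte markers.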

How the data were processed

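RNA-seq of 6 libraries was analysed, 2 each from AF, GF and SPF mice, grouped by their titles. Reads were processed with STAR 2.5.2b, RSEM and edgeR 3.16.5 on GRCm38/mm10, per the submitters' processing notes. No version of RSEM, annotation release or strand setting is given in the sources used here. The authors deposited, per the file headers, RSEM expected counts per gene and TPM, which RSEM scales by length and to a fixed total. Per the file headers the same deposited tables hold RSEM's posterior standard deviation of the count and a credibility interval of the TPM, whose level is not stated.

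Symbols and coordinates came from GENCODE M21 (51633 of 51912 IDs matched). Expected counts were rounded, since 23.5% of values above 0 are not whole. Genes were tested with edgeR's quasi-likelihood F test (legacy fit, robust off) on all 6 libraries with TMM (factors 0.791 to 1.41) and filterByExpr, which left 3 residual and 3.08 prior degrees of freedom and a biological coefficient of variation of 0.368. Calls are Benjamini-Hochberg adjusted p-values below 0.05 over 13644 genes. Standard errors are the absolute log2 fold change over the square root of F. Libraries totalled 16109488 to 19417054 counts. The script was tested on simulated data. DESeq2 1.42.0, limma 3.58.1 and edgeR 4.0.16 ran in R 4.3.3. Counting intervals are exact Poisson at 95%. The 7 genes and the lists were chosen with earlier results of these data known. All 7 genes are named. Other pathway genes are named where they passed the test, otherwise at most 2 a list with the smallest p in GF versus SPF or AF versus SPF, and of marker lists the most abundant gene. Of the pan-leukocyte list Rac2 is named as well. A gene of the signalling list and a macrophage marker are not reported here. Alternatives were other scalings, filters, tests, TPM with limma, only the 2 groups compared and each library left out in turn.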

Additional observations from a re-analysis of the deposited data

How the results depend on the processing

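The direction of the class II genes was lower in AF than in GF, lower in AF than in SPF and lower in GF than in SPF under all 17 alternatives run. What moved was the number called, which is 0 in each comparison in edgeR's quasi-likelihood fit. DESeq2 called 7 in AF versus GF, 7 in AF versus SPF and 6 for any difference. edgeR's likelihood ratio test, chosen after seeing the data, called 4, 7 and 7 in the same order. The quasi-likelihood fit without a low-count filter, whose prior degrees of freedom were infinite against 3.08, called 7, 7 and 7 in that order and 4 in GF versus SPF. A fit of only the 2 groups compared called 1 in AF versus SPF. Leaving out 1 library at a time gave 0 to 1 called in AF versus SPF. It gave medians of -5.04 to -1.65 in AF versus GF and -3.71 to -0.32 in GF versus SPF. limma on log2(TPM + 1), which understates low genes, gave a median of -2.57 in AF versus GF with and without its filter. Of single genes, 18 values in AF versus GF, 25 in AF versus SPF and 4 in GF versus SPF crossed to an adjusted p below 0.05. With a library left out, its group's lone sample is assumed to vary like the others. No paired analysis was possible because no label pairs libraries across groups. Depth limits the AF values most: H2-DMb1 rests on 1 and 4 counts and Ciita on 6 and 11.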

Other observations

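RSEM's weighted transcript length of H2-Ab1 was 939.6 and 946 bases in AF, 1062 and 1129 bases in GF and 1144 and 1094 bases in SPF. The gene has 3 transcripts in GENCODE M21, a coding one of 1212 bases and a pair of retained-intron ones of 628 and 515 bases, and a lower weighted length goes with a larger estimated share of the shorter ones. The AF libraries rest on 84 and 82 H2-Ab1 counts. The TPM ratios given for H2-Ab1 use these lengths.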
